A study of Mus musculus with 20 samples.

Results

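The BCL2 family genes described here are the members that restrain or promote apoptosis at the mitochondrion, followed across 8 cell fractions sorted from adult mouse testis. The list held 10 genes: the survival members Bcl2, Bcl2l1, Bcl2l2 and Mcl1, and the death members Bax, Bak1, Bad, Bcl2l11, Bcl2l14 and Bid. Members were the probe sets to which the platform annotation gives 1 of these genes alone, which found 33 of the 45037 probe sets in the table and 9 of the 10 genes. Bax was not analysed here. Of the 33 probe sets, 19 reached a log2 signal of 5 on at least 2 of the 20 arrays and were tested, and they covered 8 genes.

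All samples came from the testes of male C57BL/6 x DBA/2J F1 mice aged 10 to 16 weeks, with no genetic change or drug named in the labels, and cells were sorted by Hoechst 33342 staining. Arrays numbered 4 for spermatogonia (Sp), 3 for pre-leptotene cells (pL), 3 for leptotene-zygotene cells (L/Z), 1 for early-pachytene (eP), 2 for mid-pachytene (mP), 1 for late-pachytene (lP), 2 for diplotene (D) and 4 for round spermatids (RS). Each array carried RNA pooled from several sorts and mice, and the leptotene-zygotene gate held a mixture of both stages. RNA was hybridised to Affymetrix MOE430 version 2 arrays, and levels below are log2 GC-RMA signals, with a mean ± SD over the arrays of a fraction. A signal is a relative level for its own probe set, so levels are compared between fractions and not between genes.

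BCL2 family proteins decide whether the outer mitochondrial membrane stays closed. The survival members BCL2, BCL-XL (Bcl2l1), BCL-W (Bcl2l2) and MCL1 hold the pore-forming effectors BAX and BAK (Bak1) in check. BH3-only proteins such as BAD, BIM (Bcl2l11) and BID either occupy the survival proteins or activate the effectors, and an open membrane releases cytochrome c, which assembles APAF1 and caspase 9 into the apoptosome. In the testis, BCL-W is needed for spermatogenesis to be sustained in adults, and BAX is needed for the early wave of germ cell death.

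The promoters of 6 members with different courses are shown so that the genes that fell can be read beside those that rose. Bcl2l14 is added, whose brighter tested probe set read high at both ends of the series, the other in round spermatids alone. The windows come from RefSeq (build GRCm38.p6), each 300 bases long, written 5′ to 3′ on the gene's own strand, around an annotated start. RefSeq gave 14 such windows for the 9 genes. Capitals mark matches to 4 motifs searched on both strands: the GC box GGGCGG, the MYB core AACGG, the cyclic AMP response core TGACG and the E-box CACGTG.
Bid, chr6:120916775-120917074, minus strand: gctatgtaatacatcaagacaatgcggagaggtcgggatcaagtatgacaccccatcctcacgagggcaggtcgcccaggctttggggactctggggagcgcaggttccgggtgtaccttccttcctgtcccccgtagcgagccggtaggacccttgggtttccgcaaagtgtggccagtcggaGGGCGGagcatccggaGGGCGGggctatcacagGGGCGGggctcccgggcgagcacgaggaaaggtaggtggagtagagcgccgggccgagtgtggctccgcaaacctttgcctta
Bcl2l11, chr2:128125788-128126087, plus strand: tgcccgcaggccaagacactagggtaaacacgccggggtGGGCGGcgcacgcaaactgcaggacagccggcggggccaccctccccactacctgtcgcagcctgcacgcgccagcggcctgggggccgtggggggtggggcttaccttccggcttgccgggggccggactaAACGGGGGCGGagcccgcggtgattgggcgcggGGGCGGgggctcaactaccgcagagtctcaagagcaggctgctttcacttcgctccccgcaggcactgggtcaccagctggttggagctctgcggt
Bcl2l2, chr14:54883175-54883474, plus strand: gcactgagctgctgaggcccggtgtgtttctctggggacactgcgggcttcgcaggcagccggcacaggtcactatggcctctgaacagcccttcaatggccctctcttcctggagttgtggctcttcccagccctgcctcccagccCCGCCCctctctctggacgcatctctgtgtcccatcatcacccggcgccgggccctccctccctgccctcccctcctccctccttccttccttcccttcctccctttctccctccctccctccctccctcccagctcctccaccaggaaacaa
Bad, chr19:6941611-6941910, plus strand: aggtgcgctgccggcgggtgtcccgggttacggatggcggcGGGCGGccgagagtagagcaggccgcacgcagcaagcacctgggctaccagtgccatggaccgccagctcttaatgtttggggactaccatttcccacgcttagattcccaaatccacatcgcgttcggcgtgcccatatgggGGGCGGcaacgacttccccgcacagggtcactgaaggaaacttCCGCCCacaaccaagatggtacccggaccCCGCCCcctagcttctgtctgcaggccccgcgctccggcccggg
Bak1, chr17:27028578-27028877, minus strand: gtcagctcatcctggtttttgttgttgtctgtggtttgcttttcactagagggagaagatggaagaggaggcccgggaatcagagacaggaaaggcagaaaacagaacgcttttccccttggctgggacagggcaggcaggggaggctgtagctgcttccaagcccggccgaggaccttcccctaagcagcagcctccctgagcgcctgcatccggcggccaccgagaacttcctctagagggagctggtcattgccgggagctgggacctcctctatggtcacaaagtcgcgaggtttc
Bcl2l14, chr6:134396079-134396378, plus strand: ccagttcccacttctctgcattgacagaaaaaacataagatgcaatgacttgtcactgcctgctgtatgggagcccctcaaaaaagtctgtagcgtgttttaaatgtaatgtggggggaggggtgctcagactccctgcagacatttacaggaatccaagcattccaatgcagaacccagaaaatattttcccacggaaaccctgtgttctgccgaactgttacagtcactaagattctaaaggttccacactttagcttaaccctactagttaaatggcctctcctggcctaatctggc

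Of all 32851 promoter windows, 35.7% held a GC box, 17.4% a MYB core, 20.8% a cyclic AMP response core and 7.15% an E-box. The GC box was the motif found most often here: 3 matches in Bid, 3 in this Bcl2l11 window, 1 in Bcl2l2 and 4 in this Bad window. The Bak1 window and both Bcl2l14 windows held none of the 4 motifs. The Bcl2l11 window also held 1 MYB core, which directly adjoins a GC box. The genes shown that fell had windows with GC boxes. Of the genes that rose, Bad had such a window, while its other window, that of Bak1 and those of Bcl2l1 (not shown) held none. Windows not shown of Mcl1 and Bcl2 held 1 and 7 GC boxes. The windows shown differ in base content. G and C made up 63.3% of letters in Bid, 71% in Bcl2l11, 65.3% in Bcl2l2, 65.7% in Bad, 58.3% in Bak1 and 45.7% in Bcl2l14. The median over all windows was 52.7%. Whether the matches go with the courses described next was not tested, and a match is a description of these letters only.

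The fractions were compared with limma over all 20 arrays, with p-values adjusted by Benjamini-Hochberg over the 22396 probe sets that passed the signal filter and called below 0.05. The stepwise comparisons pass over the early-pachytene and late-pachytene fractions of 1 array each. Among them, the one from leptotene-zygotene to mid-pachytene cells held the most member calls in this fit. With the replicate number as a block it held 10, as many as the step into round spermatids. With array project as a block, the step into round spermatids held more member calls than the step into mid-pachytene. No member probe set passed the test from spermatogonia to pre-leptotene or from pre-leptotene to leptotene-zygotene, where 0.487% and 2.02% of all tested probe sets did. At these steps 1 and 0 member probe sets had an unadjusted p below 0.05. From leptotene-zygotene to mid-pachytene, 4 of 19 member probe sets rose and 6 fell, against a background of 28.9% of all probe sets called. From mid-pachytene to diplotene 1 rose and 2 fell (background 19.3%), and from diplotene to round spermatids 3 rose and 5 fell (background 25.1%).

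Wider comparisons span these steps. The first set the mean of the mid-pachytene, late-pachytene and diplotene fractions (late prophase) against the mean of the spermatogonia, pre-leptotene and leptotene-zygotene fractions (before pachynema), weighting fractions equally. There 8 member probe sets were higher in late prophase and 7 lower, together 78.9% of the 19, where 69.7% of all tested probe sets were called. These counts take probe sets of the same gene as separate. By the probe set of highest mean signal for each gene, 3 of 8 genes rose and 4 fell. The other set round spermatids against spermatogonia, where 6 rose and 11 fell (89.5% beside 73.0%). Any difference among the fractions, by limma's F test, was called for 15 of 19 beside 78.7% of all. These shares lie not far above the background, and the counts alone do not set the family apart.

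Neither side of the family moved as a block. Taking the probe set of highest mean signal for each gene, Bcl2l1 rose into late prophase and Bcl2l2 fell among the 3 tested survival genes. The third, Mcl1, fell on that probe set, but 4 of its 6 probe sets rose and their mean did not pass the test (0.24, adjusted p = 0.151). Of the tested death genes, Bad and Bak1 rose, Bcl2l11 and Bid fell and Bcl2l14 did not pass the test. The median log2 difference was -2.67 for the 3 BH3-only genes, beside -0.22 for all tested probe sets. It is the value of Bid, with Bcl2l11 at -3.10 and Bad at 2.15, so it does not describe a shared fall. The median of the 3 survival genes (-1.02) is the value of the brightest Mcl1 probe set and its sign rests on that choice.

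**Figure D1:**
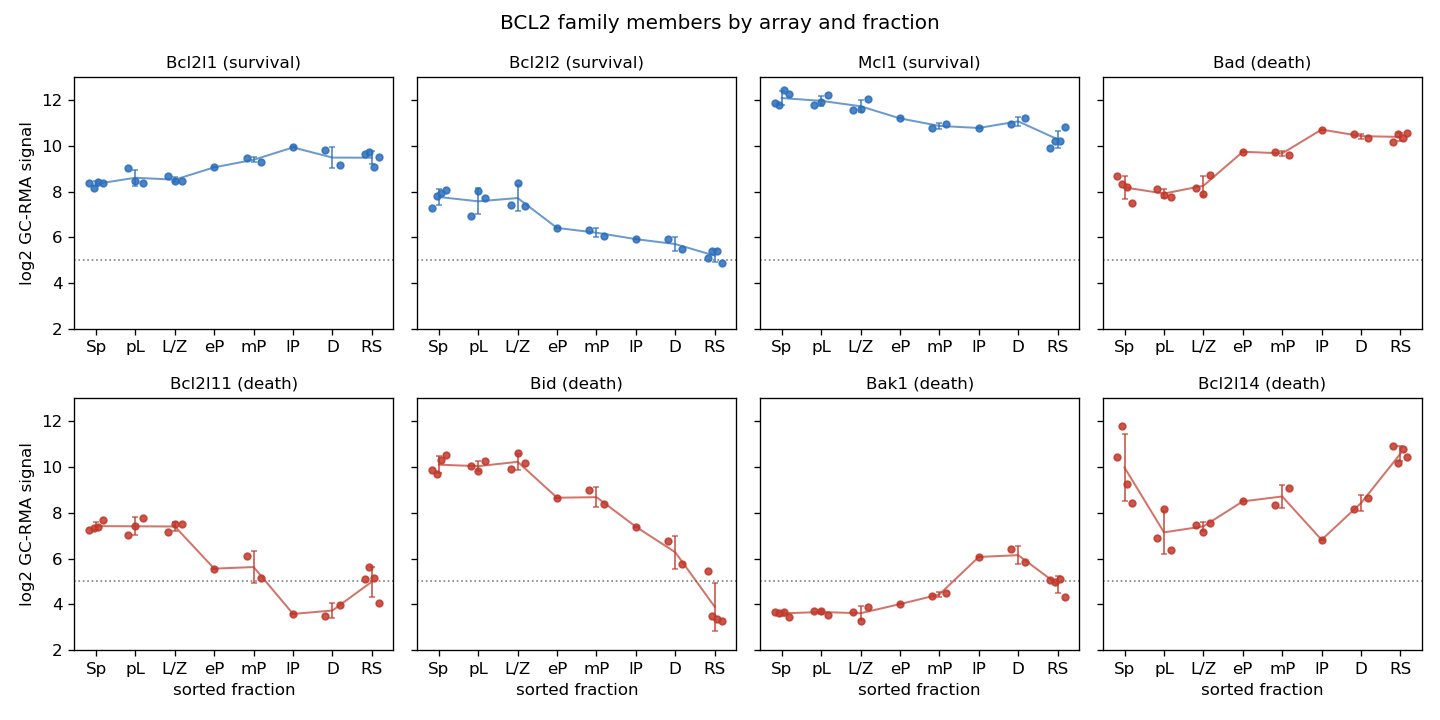
Log2 GC-RMA signal of the 8 tested BCL2 family genes (representative probe set) in the 8 sorted fractions; points are arrays, lines join fraction means, bars are SD and the dotted line marks the filter at log2 5. Survival genes are blue and death genes red: Bid falls from 10.10 in spermatogonia to 3.89 in round spermatids, while Bad climbs from 8.18 to 10.39.

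Bid had the widest course of the tested members. BID is a BH3-only protein that caspase 8 cleaves, linking death receptors to the mitochondrion. On probe set 1417045_at it read 9.89, 9.69, 10.33 and 10.51 on the spermatogonia arrays, 10.04, 9.81 and 10.27 in pre-leptotene and 9.92, 10.60 and 10.17 in leptotene-zygotene cells. It then read 8.66 in early-pachytene, 9.00 and 8.37 in mid-pachytene, 7.39 in late-pachytene, 6.79 and 5.76 in diplotene, and 5.45, 3.48, 3.35 and 3.29 in round spermatids. The first 3 fractions overlapped each other, and mid-pachytene, late-pachytene, diplotene and round spermatid arrays lay in that descending order without overlap.

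The Bid difference was -1.55 ± 0.54 (SE) from leptotene-zygotene to mid-pachytene (limma, adjusted p = 0.0424), -2.41 ± 0.59 on to diplotene (adjusted p = 0.00955) and -2.38 ± 0.51 on to round spermatids (adjusted p = 0.00315). Round spermatids lay 74.0-fold below spermatogonia on the signal scale (log2 difference -6.21 ± 0.42, adjusted p = 3.18e-09). Levels near 3 are close to the array background, and with all log2 values under 5 raised to 5 that difference was -4.99. The first step had an adjusted p of 0.0588, 0.119 or 0.0691 without leptotene-zygotene array 1, 2 or 3, and of 0.0605 or 0.292 without mid-pachytene array 1 or 2. That p lay between 0.051 and 0.0516 without spermatogonia array 1 or pre-leptotene array 1 or 3. Array names in the study's supplement carry project numbers, and whether a project is a hybridisation batch is not stated. Within project 6, which held both fractions, the first step was -2.23. The step into diplotene was likewise lost without mid-pachytene array 1 or diplotene array 2 (adjusted p = 0.0964 and 0.117), and the step into round spermatids without diplotene array 1 (adjusted p = 0.0781). With the mean over the 2 tested Bid probe sets the steps were -1.37, -1.29 and -1.17 (adjusted p = 0.0941, 0.181 and 0.154). The other Bid probe set tested, 1448560_at, reached log2 5 only on spermatogonia arrays 3 and 4 (6.21 and 6.55). It passed the filter through that fraction alone, so its calls had their direction set in advance.

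Bcl2l11, which encodes the BH3-only activator BIM, fell at the same step, with its lowest levels in late-pachytene and diplotene cells. Probe set 1426334_a_at read 7.42 ± 0.19 in spermatogonia (n = 4), 7.41 ± 0.39 in pre-leptotene (n = 3) and 7.40 ± 0.20 in leptotene-zygotene cells (n = 3). Its arrays then read 5.56 in early-pachytene, 6.13 and 5.13 in mid-pachytene, 3.58 in late-pachytene, 3.49 and 3.97 in diplotene and 5.12, 5.63, 5.14 and 4.07 in round spermatids. All arrays before pachynema lay above all later ones. The drop was -1.77 ± 0.41 into mid-pachytene (limma, adjusted p = 0.00504, or 0.118 without mid-pachytene array 2) and -1.89 ± 0.45 into diplotene (adjusted p = 0.0075), and the level then rose by 1.26 ± 0.39 into round spermatids (adjusted p = 0.0258).

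The other tested Bcl2l11 probe sets followed the fall and not the return. The late prophase difference was -3.10 ± 0.25, -2.94 ± 0.23 and -3.76 ± 0.33 on 1426334_a_at, 1435448_at and 1456005_a_at (limma, adjusted p = 2.76e-08, 1.77e-08 and 5.34e-08). The late prophase means of 4.31, 2.55 and 3.57 lie under log2 5, and with values under 5 raised to 5 the differences were -2.20, -0.50 and -2.22 (adjusted p = 5.12e-08, 0.0225 and 3.34e-07). Probe set 1435448_at passed the filter through arrays before pachynema alone, so the direction of its fall was set in advance. From diplotene to round spermatids, 1435448_at differed by 0.17 (adjusted p = 0.825) and 1456005_a_at by -0.50 (adjusted p = 0.554). The return on the representative probe set runs between low signals: it was 0.22 (adjusted p = 0.728) with values under log2 5 raised to 5, and its adjusted p lay between 0.0511 and 0.223 without either diplotene array or without round spermatid array 2 or 3. The fall into diplotene was likewise -0.63 (adjusted p = 0.211) with that floor, and its adjusted p was 0.115 without mid-pachytene array 1 and 0.0561 without diplotene array 1.

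Bad rose where these BH3-only genes fell. BAD binds BCL-XL and BCL-W when survival signalling is low. On probe set 1416582_a_at it read 8.69, 8.34, 8.21 and 7.48 in spermatogonia, 8.12, 7.86 and 7.76 in pre-leptotene and 8.14, 7.89 and 8.73 in leptotene-zygotene cells. It read 9.74 in early-pachytene, 9.74 and 9.60 in mid-pachytene, 10.71 in late-pachytene, 10.50 and 10.35 in diplotene, and 10.16, 10.50, 10.35 and 10.54 in round spermatids. Every array from early-pachytene on lay above every earlier array.

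The Bad increase was 1.41 ± 0.33 into mid-pachytene (limma, adjusted p = 0.00549) and 2.15 ± 0.21 for late prophase as a whole (adjusted p = 1.42e-07), a 4.44-fold difference. The first step was 1.71 within array project 6, the only one to hold both fractions. The other probe set, 1416583_at, gave 1.23 ± 0.38 and 1.81 ± 0.24 (adjusted p = 0.025 and 4.57e-06), and its first value had an adjusted p between 0.0623 and 0.126 without leptotene-zygotene array 1 or 2 or either mid-pachytene array. From diplotene to round spermatids neither passed the test (-0.04 and 0.01, with SEs of 0.31 and 0.36). Over that same step Bid fell.

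Bak1, the effector that sits in the outer membrane, had a peak around late-pachytene and diplotene. Probe set 1418991_at read between 3.27 and 3.89 on the arrays before pachynema, 4.01 in early-pachytene, 4.36 and 4.50 in mid-pachytene, 6.07 in late-pachytene and 6.43 and 5.87 in diplotene. The round spermatid arrays read 5.06, 4.98, 5.11 and 4.32, above all early arrays and below all diplotene ones. Bak1 rose by 1.72 ± 0.32 from mid-pachytene to diplotene (limma, adjusted p = 0.00141) and fell by 1.28 (SE 0.27) into round spermatids (adjusted p = 0.00293).

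Only 5 of the 20 Bak1 values reached log2 5, so its early levels are background readings. All of them were on late-pachytene, diplotene or round spermatid arrays, so the filter set in advance that Bak1 would read higher there. The step from leptotene-zygotene to mid-pachytene (0.82 ± 0.29, adjusted p = 0.0429) lay wholly under that level, was 0.00 with the floor and had an adjusted p of 0.118 with array project as a block and between 0.0528 and 0.226 without mid-pachytene array 1 or 2, leptotene-zygotene array 1 or 2, spermatogonia array 1, round spermatid array 2 or any pre-leptotene array. The fall into round spermatids had an adjusted p of 0.0726 without diplotene array 1. The rise into diplotene was 1.15 with the floor (adjusted p = 0.000266), and in both array projects that held the 2 fractions it was positive (2.06 and 1.37). The other Bak1 probe set stayed between 2.15 and 2.42 on all arrays.

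Among the survival genes, Bcl2l2 fell. BCL-W is the survival protein whose loss leaves male mice sterile. Probe set 1423572_at read 7.29, 7.79, 7.92 and 8.05 in spermatogonia, 6.94, 8.04 and 7.74 in pre-leptotene and 7.42, 8.37 and 7.36 in leptotene-zygotene cells. It read 6.41 in early-pachytene, 6.34 and 6.06 in mid-pachytene, 5.92 in late-pachytene, 5.92 and 5.49 in diplotene, and 5.11, 5.41, 5.41 and 4.86 in round spermatids. All arrays before pachynema lay above all later ones. The difference was -1.52 ± 0.38 into mid-pachytene (limma, adjusted p = 0.00801, or 0.0941 without mid-pachytene array 2) and -2.57 ± 0.29 between round spermatids and spermatogonia (adjusted p = 8.07e-07), a 5.92-fold lower signal. The other 3 probe sets for this gene stayed below log2 5 on all arrays and were not tested.

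Bcl2l1 went the other way. BCL-XL keeps BAX and BAK inactive, and probe set 1420888_at read 8.34 ± 0.11 in spermatogonia (n = 4), 8.60 ± 0.35 in pre-leptotene (n = 3) and 8.52 ± 0.12 in leptotene-zygotene cells (n = 3). It read 9.06 in early-pachytene, 9.39 ± 0.11 in mid-pachytene (n = 2), 9.93 in late-pachytene, 9.48 ± 0.46 in diplotene (n = 2) and 9.48 ± 0.29 in round spermatids (n = 4). The increase into late prophase was 1.11 ± 0.18 (limma, adjusted p = 3.51e-05), or 2.17-fold, and mid-pachytene, diplotene and round spermatids overlapped each other. With the mean over its 2 tested probe sets it was 0.67 (adjusted p = 0.0552). The step into mid-pachytene (0.87 ± 0.28, adjusted p = 0.0313) had an adjusted p of 0.124 or 0.121 without mid-pachytene array 1 or 2, and of 0.0793 or 0.0662 without leptotene-zygotene array 2 or 3.

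Another Bcl2l1 probe set, 1420887_a_at, differed among arrays within a fraction (2.69, 4.72, 5.70 and 5.65 in round spermatids) and passed no test in the fit without a block. With array project as a block, its late prophase difference was 1.41 (adjusted p = 0.00242). It reached log2 5 on 3 of the 20 arrays, its means were 3.67 in late prophase and 3.44 before, and with values under log2 5 raised to 5, without the block, the difference was 0.09 (adjusted p = 0.614).

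Bcl2 itself, the founding member, stayed near background. Its 5 probe sets read between 2.14 and 4.78 on the arrays, with a single exception of 6.00 on diplotene array 2 for 1443837_x_at, where diplotene array 1 read 2.29. None was tested, so the readings say only that Bcl2 was not measurable above background with these probe sets.

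Mcl1 cannot be given a single direction. MCL1 is a short-lived survival protein, and its 6 probe sets were all well above the filter on all 20 arrays yet disagreed. The brightest, 1448503_at, read 11.87, 11.79, 12.43 and 12.26 in spermatogonia, 10.79 and 10.95 in mid-pachytene and 9.92, 10.22, 10.20 and 10.81 in round spermatids. It fell into late prophase by 1.02 on the log2 scale (SE 0.19, limma, adjusted p = 0.000155), while 1416880_at, 1437527_x_at, 1456243_x_at and 1456381_x_at rose by 0.65, 0.72, 0.59 and 0.62 (adjusted p = 0.0314, 0.00292, 0.00743 and 0.0107). Late prophase arrays overlapped the arrays before pachynema for each of these rises, and did not for the fall. By limma's F test over the fractions, 1416880_at was not called (adjusted p = 0.102). The late prophase call for 1416880_at was lost without pre-leptotene array 1, leptotene-zygotene array 1, mid-pachytene array 2 or diplotene array 1 (adjusted p from 0.0527 to 0.0975). Probe set 1416881_at differed by -0.14 (adjusted p = 0.691) in late prophase and read highest in round spermatids, at 10.41, 10.48, 10.53 and 10.40.

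Between round spermatids and spermatogonia the Mcl1 probe sets split again, with 5 falling by 0.55 to 1.80 and 1416881_at rising by 0.98 (adjusted p = 0.0256, or 0.22 without spermatogonia arrays 1 and 2). Of the falls, that of 1448503_at (-1.80, adjusted p = 3.63e-06) and that of 1437527_x_at (-0.69, adjusted p = 0.0145) kept their calls with each of 18 arrays left out in turn. The others did not. Without spermatogonia arrays 1 and 2 together, 1437527_x_at differed by -0.61 (adjusted p = 0.0838). The rise of 1416881_at was lost without spermatogonia array 1 or round spermatid array 3 (adjusted p = 0.0985 and 0.0517). The late prophase rise of the 3 probe sets whose names end in x_at, which by the platform's naming share probes with other transcripts, was 0.41, 0.36 and 0.40 with array project as a block (adjusted p = 0.0513, 0.0594 and 0.0703). The rise of 1416880_at, whose name does not end in x_at, was 0.85 with that block (limma, adjusted p = 0.0041). The fall of 1448503_at kept its call there too (-0.72, adjusted p = 0.00105). Averaged over the 6 probe sets, Mcl1 differed by 0.24 (adjusted p = 0.151).

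**Figure D2:**
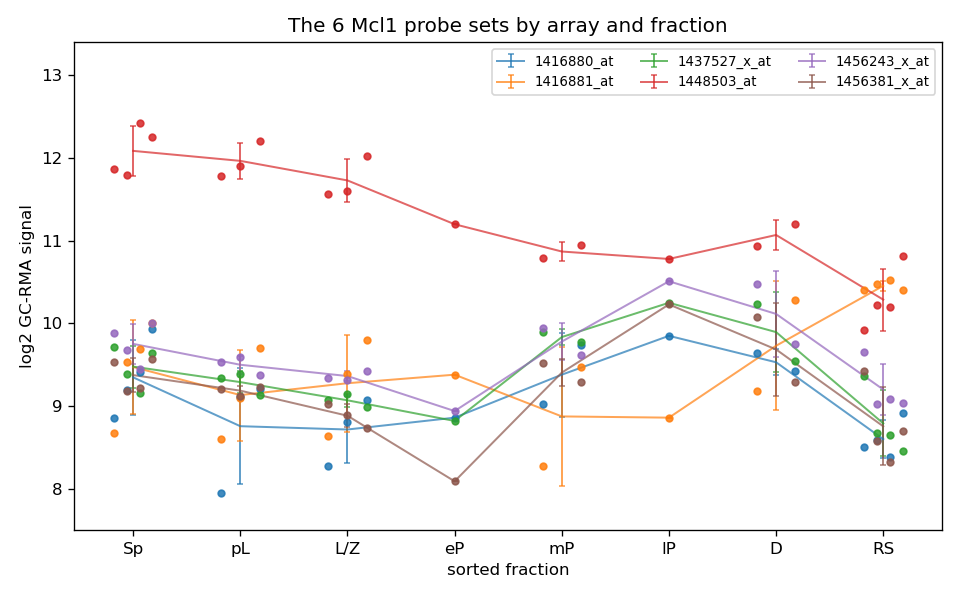
Log2 GC-RMA signal of the 6 Mcl1 probe sets in the 8 sorted fractions; points are arrays, lines join fraction means and bars are SD. The brightest probe set, 1448503_at, declines from 12.09 in spermatogonia to 10.29 in round spermatids, 4 others rise into late prophase and 1416881_at is highest in round spermatids.

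Bcl2l14, which encodes BCL-G, a family member known for abundance in testis, was high at both ends of the series on its brighter tested probe set. Probe set 1424814_a_at read 10.42, 11.81, 9.24 and 8.44 in spermatogonia and 10.93, 10.18, 10.77 and 10.46 in round spermatids. Between them it read 6.88, 8.18 and 6.38 in pre-leptotene, 7.47, 7.18 and 7.57 in leptotene-zygotene, 8.50 in early-pachytene, 8.36 and 9.07 in mid-pachytene, 6.82 in late-pachytene and 8.18 and 8.67 in diplotene. The spermatogonia arrays spread widely and overlapped round spermatids, while all 4 lay above the pre-leptotene arrays.

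The Bcl2l14 level rose by 2.16 ± 0.68 from diplotene to round spermatids (limma, adjusted p = 0.0292), a call lost without diplotene array 1 or 2 (adjusted p = 0.196 and 0.0775) or round spermatid array 1 or 3 (adjusted p = 0.0563 and 0.0581). Its difference between pre-leptotene and spermatogonia, -2.83 ± 0.60, just missed the threshold (adjusted p = 0.0505) and passed it with array project as a block (-3.07, adjusted p = 0.0307). Within the 3 projects that held both fractions it was -3.54, -3.62 and -2.05. Without spermatogonia arrays 1 and 2 it was -1.69 (adjusted p = 0.293), and the round spermatid difference from spermatogonia went from 0.61 (adjusted p = 0.334) to 1.75 (adjusted p = 0.00289).

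Markers of round spermatids moved with these values. The summed signal of 7 such markers was 121000, 156000, 67500 and 41900 on spermatogonia arrays 1 to 4, against 24000 to 36200 in pre-leptotene cells and 88100 to 118000 in round spermatids. The order of the 4 spermatogonia arrays was the same for the marker sum and for Bcl2l14. Within the marker list, the protamine and transition protein genes Prm1, Prm2, Tnp1 and Tnp2 did not pass the test between round spermatids and spermatogonia (log2 differences -0.36, -0.57, 0.10 and 0.15), whereas the acrosomal genes Acrv1 and Spaca1 were 5.75 and 5.50 higher in round spermatids. The part of spermatid transcripts in the spermatogonia level of Bcl2l14 was not tested.

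**Figure D3:**
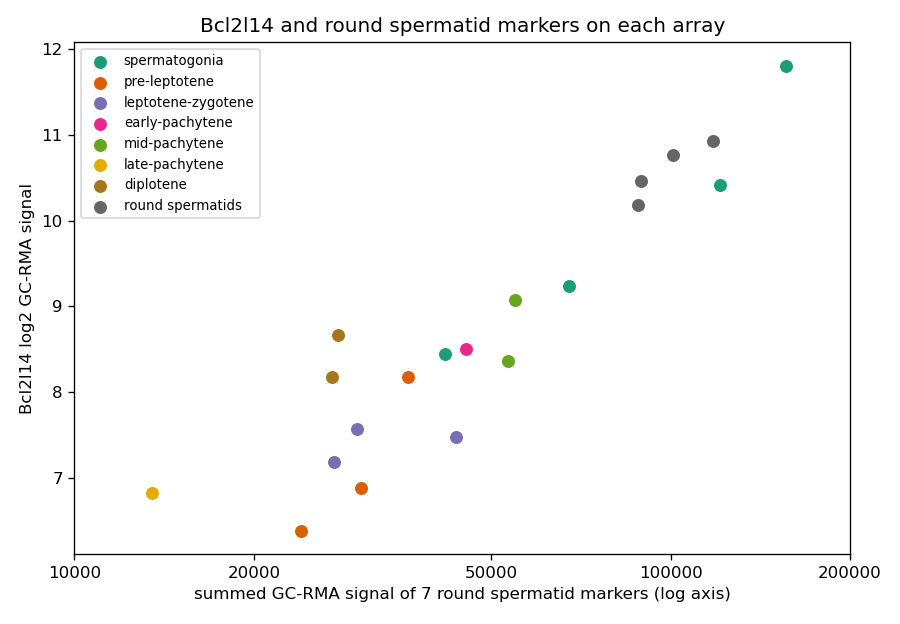
Bcl2l14 log2 GC-RMA signal (1424814_a_at) on each of the 20 arrays against the summed signal of 7 round spermatid markers (log axis), coloured by fraction. The 4 round spermatid arrays and spermatogonia arrays 1 and 2 hold the highest values on both axes, and the other spermatogonia arrays lie lower, at 9.24 and 8.44.

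The other tested Bcl2l14 probe set, 1429347_at, followed a different course and reached log2 5 in round spermatids alone. It read 7.59, 7.17, 6.34 and 5.49 there and between 2.18 and 3.37 on the remaining arrays, spermatogonia included. The difference from diplotene was 3.81 ± 0.44 (limma, adjusted p = 3.63e-05), and 1.65 (adjusted p = 0.00558) with values under log2 5 raised to 5. This probe set passed the signal filter through round spermatid arrays alone. The direction of that test was thus set in advance, and its p-values are no separate support. RefSeq gives Bcl2l14 a pair of separate starts on chromosome 6, and which transcript each probe set reads was not analysed here.

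**Figure D4:**
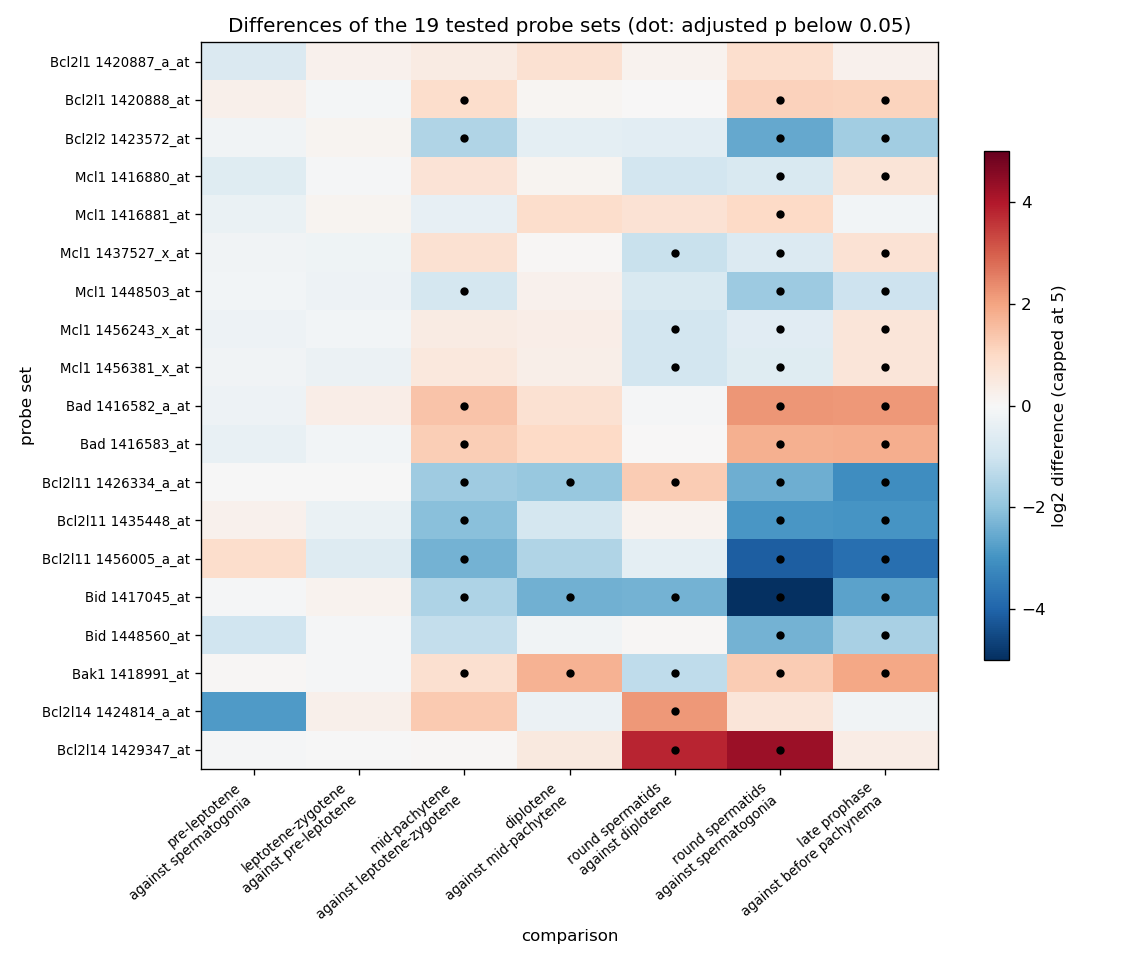
Log2 differences of the 19 tested probe sets (rows, grouped by gene) in the 7 comparisons (columns); red is higher in the fraction named first, blue lower, the colour is capped and a dot marks adjusted p below 0.05. The 2 left columns hold no dot, and Bad and Bcl2l11 have opposite colours in late prophase.

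Over the 8 fraction means the tested members other than Bcl2l14 fell into 2 opposed courses, with Mcl1 placed by its brightest probe set alone. Bad correlated with Bcl2l1 (r = 0.95) and Bak1 (r = 0.87) and inversely with Bcl2l11 (r = -0.97) and Bcl2l2 (r = -0.95). Bid and Mcl1 (1448503_at) followed Bcl2l2 (r = 0.92 and 0.96), and Bcl2l14 followed none of the others (r between -0.45 and 0.12). Other pairs were looser, such as Bid with Bcl2l11 (r = 0.74) and Bak1 with Bid and Mcl1 (r = -0.69 and -0.67). Each course held survival and death genes. These are correlations over 8 points from shared sorts and arrays, given as a description.

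Genes of most similar course were sought among 11952 genes with a tested probe set of their own, by the correlation over the same 8 fraction means. For Bid they were Ppp1r8, Mcm3, a subunit of the replicative helicase, and Cdc42se2 (r = 0.998 each). For Bcl2l11 they were Sdcbp, Zfp516 and Nptn (r = 0.996, 0.995 and 0.993), and for Bad Tprgl, Cndp2 and the DNA polymerase lambda gene Poll (r = 0.999, 0.998 and 0.997). For Bcl2l14, on probe set 1424814_a_at, they were Prm3, the testis kinase gene Tssk3 and Smim23 (r = 0.999, 0.996 and 0.996). A search of 11952 genes over 8 points finds high correlations by itself, so these values are a description only.

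The wider apoptosis machinery was read from 7 further gene lists in the late prophase comparison. Of all 22396 tested probe sets, 69.7% were called there, 6818 higher and 8785 lower, and each list's count below stands beside that share. Among other BCL2 relatives, 2 of 8 tested genes rose and 4 fell, with a median of -1.24 beside -0.22 for all tested probe sets. The BH3-only gene Bik fell by 3.33 on the log2 scale and the mitophagy receptor gene Bnip3 by 2.46, while Bcl2l12 rose by 2.51. Bcl2l15 was also called higher (limma, adjusted p = 7.25e-07), at 4.22 against 2.24, both under log2 5. It read 7.17 in round spermatids and 2.20, under log2 5, in spermatogonia (adjusted p = 5.7e-10).

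Of the 8 apoptosome and mitochondrial factors, 2 rose and 4 fell (median -1.77, background 69.7% called). Apaf1, the apoptosome scaffold, went from 8.13 before pachynema to 4.32 (-3.81 ± 0.24, limma, adjusted p = 2.09e-09), and Aifm1 and Endog, which encode mitochondrial death factors acting on DNA, fell by 3.82 and 3.20. The cytochrome c genes crossed: somatic Cycs fell by 3.06 (adjusted p = 3.82e-05) and testis Cyct rose by 3.45 (adjusted p = 6.98e-10). Diablo, an IAP antagonist, rose by 1.79 (adjusted p = 1.94e-07).

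Of 5 tested caspase and nuclease genes, 0 rose and 4 fell (median -1.20, background 69.7% called), with Casp2 at -3.13 and Casp6 at -2.30. Among IAP genes, caspase inhibitors, 1 of 5 rose and 3 fell (same background). Xiap fell by 4.15 and Birc2 rose by 1.28. Of the 8 death receptor genes, 7 had a probe set, 3 were tested and 1 fell (Tradd, by 1.28). Late prophase means of Apaf1, Bik, Casp6, Xiap and Tradd lay under log2 5, so the sizes of their falls rest on readings below the filter level. Fasl did not pass the test in late prophase but lay 2.07 ± 0.40 higher in round spermatids than in diplotene cells (limma, adjusted p = 0.0014), at 4.57 against 2.50, both below log2 5.

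Among 5 tested genes of the p53 pathway, 2 rose and 3 fell, beside a background of 69.7% called. Atm, the kinase that senses double-strand breaks, fell by 4.07 and the cell cycle inhibitor gene Cdkn1a by 1.95, and the p53 inhibitor genes Mdm4 and Mdm2 rose by 1.39 and 0.95. Of 14 genes for partners of BCL2 proteins, 6 rose and 5 fell (median -0.26, background 69.7% called). Huwe1, whose ligase targets MCL1 for degradation, fell by 4.06, and Vdac3, a mitochondrial porin gene, rose by 0.78. Huwe1, Usp9x, Bcap31, Aifm1 and Xiap lie on chromosome X, which is silenced in pachytene spermatocytes. Huwe1 and Usp9x were 1.67 and 2.56 higher again in round spermatids than in diplotene cells (adjusted p = 0.00338 and 0.000203), while Bcap31, Aifm1 and Xiap differed by 0.96, -0.48 and -0.05 (adjusted p = 0.229, 0.668 and 0.961).

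**Figure D5:**
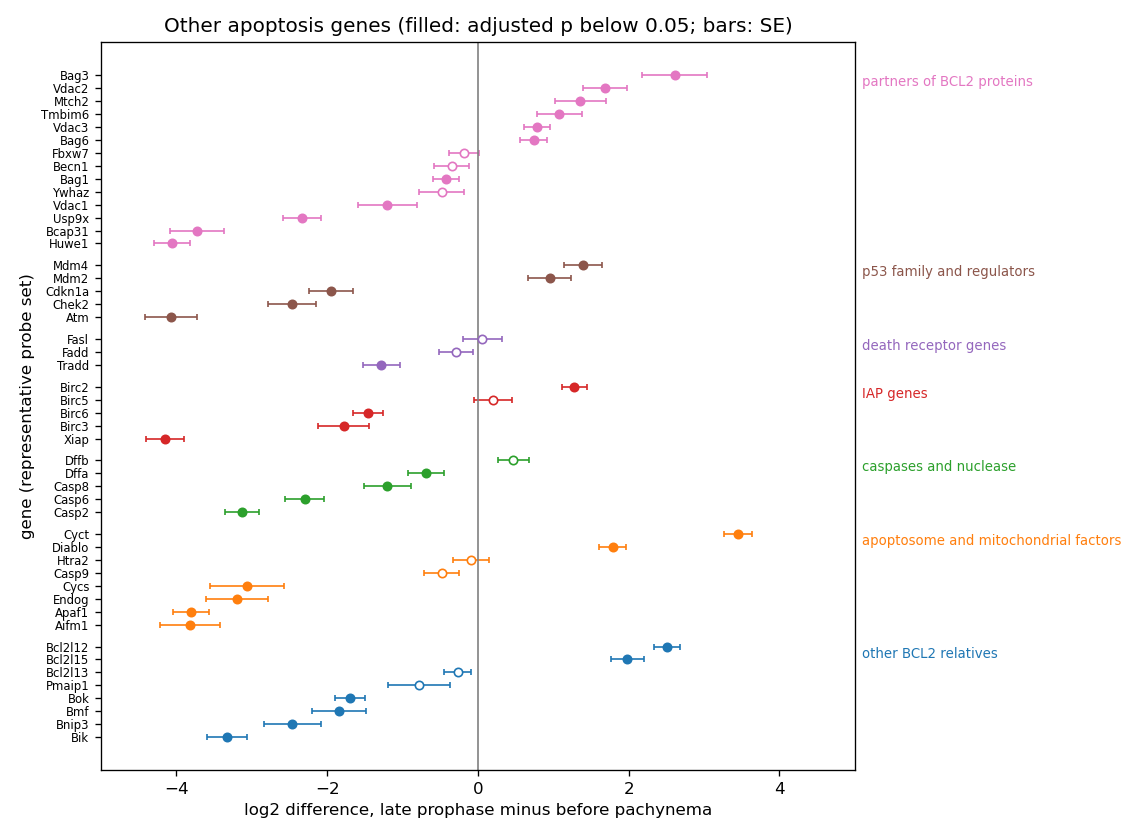
Log2 difference between late prophase and the fractions before pachynema for the tested genes of 7 apoptosis lists (1 representative probe set a gene, coloured by list); bars are SE and filled points have adjusted p below 0.05. Cyct lies farthest to the right at 3.45, Xiap farthest to the left at -4.15.

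Marker genes bear on how these fractions can be read. Summed signals of 7 spermatogonia markers ran from 22100 to 34800 on the arrays before pachynema, and from 125 to 1050 in round spermatids. Between them the sums were 16800 in early-pachytene, 10300 to 14700 in mid-pachytene, 2180 in late-pachytene and 426 to 1120 in diplotene cells. The mid-pachytene fraction thus still carried much of this signal, and its part in the steps into and out of that fraction was not tested. The sums were 22100 to 34300 in spermatogonia, 27300 to 32800 in pre-leptotene and 28600 to 34800 in leptotene-zygotene cells. This list therefore did not separate these fractions. What that means for the absence of member calls between them was not tested. Pachytene markers summed to 3390 to 28600 before pachynema and 39500 to 85500 from early-pachytene to diplotene. In round spermatids they summed to 72600 to 92700, so this list did not single out pachytene cells. Leptotene-zygotene markers summed to 9180 to 14400 in spermatogonia and 10500 to 13600 in pre-leptotene cells. Their sums were 15000 to 20200 in leptotene-zygotene cells and 19000 to 25200 in mid-pachytene cells. Of the Sertoli cell markers, Sox9, Rhox5 and Fshr averaged under log2 5 in every fraction, while the list summed to between 546 and 8170. Macrophage markers summed to 969 to 2720 on the spermatogonia arrays and 950 on pre-leptotene array 1, and 88.7 at most from leptotene-zygotene on. With spermatogonia left out of the early side, 14 of the 15 late prophase calls were made again (the exception was Bid 1448560_at), and the part of other cells in the remaining differences was not tested. In bulk samples, fewer cells of a type and less RNA per cell cannot be told apart.

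The counts for single steps rest on few arrays. Without mid-pachytene array 2 the step from leptotene-zygotene to mid-pachytene held 2 member calls in place of 10, without mid-pachytene array 1 or leptotene-zygotene array 2 it held 5, and without leptotene-zygotene array 1 it held 6. Without diplotene array 1 the step into round spermatids held 1 in place of 8, and without round spermatid array 2 or 3 it held 5. Without mid-pachytene array 1 the step into diplotene held 1 in place of 3.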

How the data were processed

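Total RNA of 20 sorted testis fractions was hybridised to Affymetrix MOE430 version 2 arrays. The deposited table holds GC-RMA signal intensity on a linear scale, computed by the authors (GCRMA is named, without version, in the submitters' processing notes), for 45037 probe sets; median signals per array ran from 11.1 to 12.7. For arrays, their number limits the precision.

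Signals were taken to log2. Groups came from the sample labels, which name the arrays of a fraction biological replicates. Probe sets were named from the platform annotation with symbols updated through RefSeq (34945 with 1 symbol, 932 with several and 9160 not listed). Bax was not analysed here, so the planned comparisons of Bax with Bcl2l1 and Bcl2l2 were not run. The members and gene lists were chosen with earlier results of these data known.

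All 20 arrays and 8 fractions entered one limma 3.58.1 fit in R 4.3.3, with lmFit and eBayes (residual degrees of freedom 12, prior 3.69), over the 22396 probe sets with a log2 signal of at least 5 on at least 2 arrays. Tests were two-sided with Benjamini-Hochberg adjustment over those probe sets, and the fit was tested on simulated data. The probe set of highest mean signal represents a gene. Named genes were all members, at most 4 genes per list and comparison that passed the test with no overlap between arrays of the 2 sides (largest change first), and the 3 genes of most similar course for the 4 members of widest range; Mdm2, Cycs and Diablo in late prophase, Bcap31, Aifm1 and Xiap between round spermatids and diplotene, and the markers, were named after their values were seen.

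Array projects, numbered in the study's supplementary column names, were matched to arrays by equal signals over 2157 probe sets. Deviations from fraction means correlated positively for all 21 pairs of arrays of different fractions that share a project (r from 0.123 to 0.699). Project was therefore tried as a block, while the main fit held none. Other alternatives were no filter, a floor at log2 5, median centring, quantile normalization, the mean over a gene's tested probe sets, a trended robust prior, the replicate number as a block and each array left out; leaving out spermatogonia arrays 1 and 2, or spermatogonia from the early side, was chosen after seeing the data. Python 3.11.15 was used for the summaries. RefSeq matched promoter windows to 9 genes.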

Additional observations from a re-analysis of the deposited data

Results flagged for a closer look

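Among the 19 tested member probe sets, 38 groups of 4 arrays (spermatogonia and round spermatids) were searched for an array far from the other 3, and 4 were found; chance alone gives about 1 in 20 groups. Of these, 3 concern round spermatid array 1. It read 5.45 for Bid (1417045_at) against 3.29 to 3.48 on the other round spermatid arrays, 3.05 for Bcl2l11 (1435448_at) against 2.37 to 2.40, and 9.66 for Mcl1 (1456243_x_at) against 9.02 to 9.08. The summed signal of the 7 spermatogonia markers on that array was 1050, and 279, 272 and 125 on the others. The remaining value was 3.44 for Bak1 (1418991_at) on spermatogonia array 4, where the other 3 read 3.64 to 3.67, all under log2 5.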

How the results depend on the processing

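Over the 53 member changes called, 3 turned direction under an alternative, all 3 with the mean over a gene's probe sets: Mcl1 1448503_at turned to 0.18 from leptotene-zygotene to mid-pachytene and to 0.24 in late prophase, and Mcl1 1416881_at to -0.57 between round spermatids and spermatogonia. The call was kept for 52 under median centring, 52 with the trended robust prior, 50 with the replicate number as a block, 48 with array project as a block, 48 without the filter, 47 under quantile normalization, 46 with the floor at log2 5, 46 without spermatogonia arrays 1 and 2 and 40 with the mean over probe sets; with spermatogonia left out of the early side it was kept for 14 of 15. Leaving out each of 18 arrays kept 873 calls and lost 81. Averaging tests 8 genes in place of 19 probe sets, and the counts of calls were then 4 from leptotene-zygotene to mid-pachytene, 3 from diplotene to round spermatids, 8 between round spermatids and spermatogonia, 5 in late prophase and 7 for any difference among fractions. From spermatogonia to pre-leptotene, 1 member (Bcl2l14) was called in place of 0 with the trended robust prior, the replicate block and the project block.

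With each of 18 arrays left out in turn, the counts ran from 0 to 1 from spermatogonia to pre-leptotene. They ran from 0 to 0 on to leptotene-zygotene and from 2 to 11 on to mid-pachytene. The range was 1 to 4 on to diplotene and 1 to 8 on to round spermatids. Between round spermatids and spermatogonia it was 13 to 17, in late prophase 14 to 15 and for any difference 15 to 17. The late-pachytene array, part of late prophase, was not among the 18, and neither was the early-pachytene array. Arrays of equal replicate number in different fractions correlated with a median r of 0.335 over 37 pairs, with 33 above 0.1 and a lowest r of -0.172, beside a median of -0.115 for unequal numbers. As not every pair exceeded 0.1, the numbers were not taken as a pairing. Array project did meet that rule, with all 21 pairs above 0.1 (median r 0.439, beside -0.0856 for different projects). The main fit nevertheless held no block, so its SEs and p-values leave this shared structure out. With the replicate number as a block, the fit held the 18 numbered arrays, and late prophase was mid-pachytene and diplotene alone. The calls were then 10 into mid-pachytene, 3 into diplotene, 10 into round spermatids, 17 between round spermatids and spermatogonia and 13 in late prophase. The planned comparisons of Bax with Bcl2l1 and Bcl2l2 were not run. Signals under log2 5 limit what can be said of Bak1, Bcl2 and the late levels of Bid and Bcl2l11.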
